A study of Arabidopsis thaliana with 8 samples.

Results

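The 50 genes described here belong to the core cell cycle machinery of Arabidopsis thaliana and were chosen by gene identifier from a list of known cell cycle roles, drawn up with earlier results of these data known. They are A-, B- and D-type cyclins, the A- and B-type cyclin-dependent kinases, Aurora kinases, proteins of cell plate formation, CDC20, E2F factors and RBR1, the MCM helicase, PCNA, and RNR1 and TSO2 of ribonucleotide reductase. All 50 were among the 19853 genes of the deposited table. By their known roles they were put in a mitotic class of 26 genes, an S-phase class of 13 genes and a G1 control class of 11 genes, and the mitotic class was compared with the S-phase class across the 4 genotypes.

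In plant cells, D-type cyclins with the kinase CDKA start the cycle by phosphorylating RBR1, which then releases E2F factors to switch on replication genes such as MCM, PCNA and ribonucleotide reductase. B-type cyclins and the plant-specific B-type kinases peak at G2 and mitosis, when MYB3R factors turn on a shared set of mitotic genes, and the anaphase-promoting complex with CDC20 later destroys the mitotic cyclins. Young inflorescences are rich in dividing cells, in the meristems and in the early floral organs.

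RNA was sequenced from inflorescences with flowers up to stage 8. The groups were the Landsberg erecta wild type (Ler), the ag-10 mutant, the fhy3-68 mutant and the double mutant ag-10 fhy3-68. Each genotype has 2 libraries, which the series calls biological replicates. FHY3 is a transposase-derived transcription factor of light signalling, and AGAMOUS, the gene named by ag-10, gives stamens and carpels their identity and stops the floral meristem. The labels name neither the nature of the alleles nor the plant age, growth conditions or number of plants pooled, and p-values measure the spread between these libraries only.

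Each value, called the level below, is a gene's reads divided by a size factor of its library, which brings the library sums to between 974821.7 and 1037312.39. The libraries held 12322061 to 16816619 reads in the listed genes, and the lowest level of a cell cycle gene, 1.0 for CYCA2;1 in ag-10 replicate 2, rested on 13 reads. In the TAIR10.1 annotation 19 of the 50 genes overlap a neighbouring gene model, AUR1, CYCD3;2, PCNA2, TSO2 and RBR1 among them, and reads of the neighbour may be included in their levels. The FHY3 transcript was at 103 and 109.8 (Ler), 104 and 103 (ag-10), 70.5 and 93.0 (fhy3-68) and 85.8 and 91.8 (ag-10 fhy3-68), lower in all 4 libraries that carry fhy3-68, with an adjusted p of 0.0558 for their average difference. Whether fhy3-68 alters the transcript is not in the labels, so this level checks no label. AG was not analysed here. Of the 5 flower markers none was at 0, and AP1, a sepal and petal identity gene, ranged from 172 to 198. The fhy3-68 replicates stood furthest apart, with a chi-square of 27.5 per degree of freedom over all genes. It was 4.68 in Ler and 12.1 in each of the other genotypes. On the first principal component the replicates of ag-10 (-44.3 and -17.9) and of fhy3-68 (22.6 and 48.8) lay apart.

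Most mitotic and replication genes were lower in both genotypes that carry fhy3-68, by about the same amount, while the medians of ag-10 alone were -0.04 and -0.06 from Ler on the log2 scale. In the effect of fhy3-68 averaged over Ler and ag-10, 4 libraries against 4, 18 of the 26 mitotic genes, 8 of the 13 S-phase genes and 3 of the 11 G1 control genes were called lower (limma, adjusted p under 0.05 over all 19853 genes). The one member called higher was CYCD3;2, a D-type cyclin. In the same comparison, 7.34% of all genes were called lower and 10.6% higher. With edgeR 27 members were called lower, against 7.01% of all genes, and with DESeq2 27, against 5.77%. CYCD3;2 was also called higher by both, against 10.6% and 11.3% of all genes. With every library scaled to the same total instead, 20.3% of all genes were called, against 17.9% before. The share of called genes that were higher went from 58.96% to 45.04%. Of all 19853 genes 2212 were then called lower, against 1458 before, and 34 of 35 called members were lower. The median log2 change was -0.44 in the mitotic class, -0.49 in the S-phase class and -0.12 in the G1 control class, against -0.01 over all genes. These are whole inflorescences, so fewer dividing cells and less of each transcript per cell cannot be told apart.

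With 2 libraries a side, few single genes passed the test between pairs of genotypes. Against Ler, fhy3-68 had 3 members called lower (AUR1, CYCB1;3 and MCM3), where 0.786% of all genes were called lower, and 1 called higher (CYCD3;2), where 2.26% were. The double mutant against Ler had 8 called lower, against 1.85% of all genes, and CYCD3;2 called higher, against 2.48%. All 8 were mitotic with limma, but the lowest adjusted p of an S-phase gene was 0.0553. DESeq2 called 10 mitotic and 5 S-phase genes lower, where it called 525 of all 19853 genes lower. Those 8 were AUR1, AUR2, PLE, CDC20.2, CYCB3;1, CYCB1;1, CYCB1;2 and CYCB1;3. In the double mutant against ag-10, AUR1 was called lower, against 0.509% of all genes, and CYCD3;2 higher, against 0.992%. For ag-10 against Ler 0 members were called by limma, edgeR or DESeq2, and 0 had an unadjusted p under 0.05. Over all genes, 0.00504% were called higher by limma and 0% lower, so this comparison called almost nothing anywhere. Several calls between pairs lay next to the threshold and were lost under alternatives. That of CYCD3;2 in fhy3-68 against Ler was lost with library totals (adjusted p = 0.064) and edgeR (0.054), and that of MCM3 with edgeR (0.0555) and with pseudocounts of 0.1 (0.0503) and 2 (0.0511). With only the Ler and fhy3-68 libraries in the fit, none of the 4 calls was left (adjusted p from 0.0761 to 0.12). In the double mutant against ag-10, CYCD3;2 was lost with library totals (adjusted p = 0.0614), edgeR (0.0584), pseudocounts of 0.1 (0.05001) and 2 (0.0524) and the filter at a mean value of 5 (0.0517). In the double mutant against Ler, CYCB1;3 was lost with DESeq2 (adjusted p = 0.0655) and PLE with edgeR (0.0509).

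Leaving out any 1 library of Ler, ag-10 or the double mutant left 0 or 1 members called in each of these 3 comparisons, with 0.00504% to 2.97% of all genes called. Without fhy3-68 replicate 1 there were 24 in fhy3-68 against Ler (17.1% of all genes), 28 in the double mutant against Ler (14.1%) and 25 for double mutant against ag-10 (9.17%). Without fhy3-68 replicate 2 there were 0 (0.66%), 28 (14.1%) and 25 (9.12%). With all libraries the shares of all genes called were 3.05%, 4.33% and 1.5%.

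**Figure D1:**
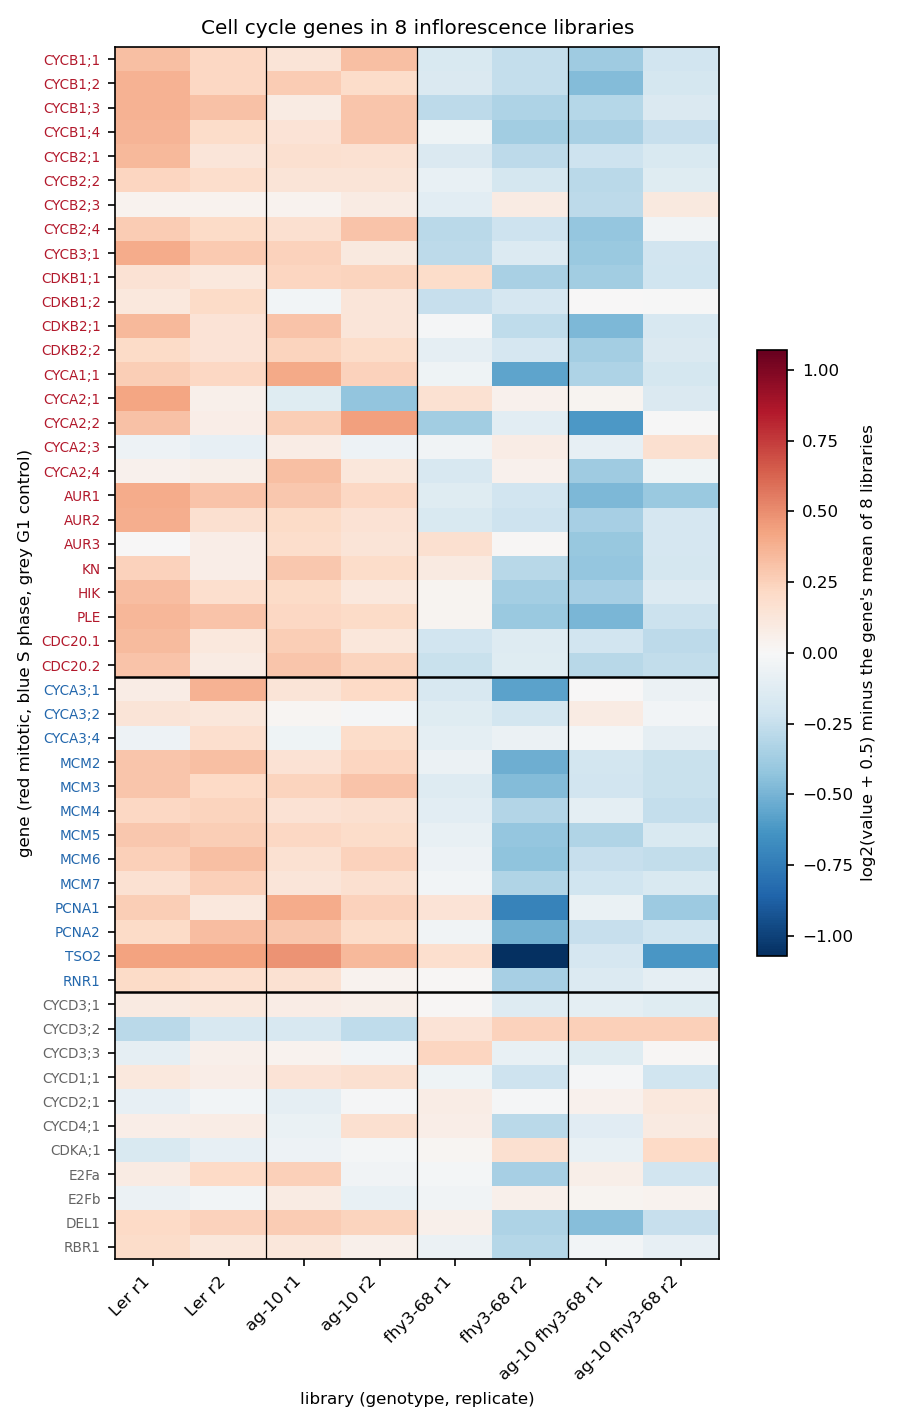
Level of each of the 50 cell cycle genes in each of the 8 libraries, as log2(level + 0.5) minus the gene's mean over the libraries (colour scale). Rows are ordered by role, with mitotic genes named in red, S-phase genes in blue and G1 control genes in grey. In 33 of the 50 rows all 4 libraries on the right, which carry fhy3-68, are below the 4 on the left.

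In 33 of the 50 genes, all 4 libraries with fhy3-68 were below all 4 without it, and in 2 genes they were all above. Over all genes the shares were 12.9% below and 14.3% above. The 33 comprised 19 mitotic, 10 S-phase and 4 G1 control genes.

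Of the 9 B-type cyclins, which drive entry into mitosis, 8 were called lower with fhy3-68 in the average over both backgrounds. CYCB1;2 (AT5G06150) was at 95.4 and 85.8 (Ler), 89.0 and 84.4 (ag-10), 66.2 and 61.7 (fhy3-68) and 53.1 and 64.4 (ag-10 fhy3-68). Each of the 4 libraries with fhy3-68 was below each of the 4 without it, at 69.2% of their mean level, a log2 difference of -0.53 (SE 0.08, adjusted p = 0.00846). CYCB1;1 (AT4G37490), whose promoter is the usual reporter of cells in G2 and mitosis, was at 40.2 and 37.4 (Ler), 35.2 and 40.1 (ag-10), 28.5 and 26.7 (fhy3-68) and 24.4 and 27.7 (ag-10 fhy3-68). It showed the same separation of the libraries, with a log2 difference of -0.50 (SE 0.079, adjusted p = 0.00926).

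CYCB1;3 (AT3G11520) was at 22.9 and 22.0 (Ler), 18.7 and 21.7 (ag-10), 14.3 and 13.8 (fhy3-68) and 14.1 and 15.7 (ag-10 fhy3-68). The libraries with fhy3-68 did not overlap the others, the double mutant was not below fhy3-68, and the log2 difference averaged -0.54 (SE 0.084, adjusted p = 0.00923). CYCB1;4 (AT2G26760) was at 31.9 and 28.3 (Ler), 27.4 and 30.4 (ag-10), 23.9 and 18.9 (fhy3-68) and 19.3 and 20.7 (ag-10 fhy3-68), again without overlap, and differed by -0.50 (SE 0.097, adjusted p = 0.0161). CYCB2;4 (AT1G76310) was at 40.5 and 38.4 (Ler), 37.6 and 41.2 (ag-10), 27.3 and 28.5 (fhy3-68) and 24.9 and 32.5 (ag-10 fhy3-68). Its highest library with fhy3-68, double mutant replicate 2, was still below the lowest ag-10 library, and the difference was -0.48 (SE 0.094, adjusted p = 0.0172). CYCB3;1 (AT1G16330), of the plant B3 group, was at 30.2 and 27.7 (Ler), 27.1 and 24.4 (ag-10), 18.7 and 20.5 (fhy3-68) and 17.2 and 19.7 (ag-10 fhy3-68), with a difference of -0.51 (SE 0.083, adjusted p = 0.0101). CYCB2;1 and CYCB2;2 differed by -0.41 (adjusted p = 0.0311) and -0.35 (adjusted p = 0.0222), and neither passed with DESeq2 (adjusted p = 0.123 and 0.0662). CYCB2;3 was not called. Its levels ran from 45.1 to 46.6 without fhy3-68 and from 36.2 to 47.4 with it, and its difference was -0.10 (adjusted p = 0.491).

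Among the B-type kinases, partners of the mitotic cyclins that are found in plants only, the CDKB2 pair was lowered and the CDKB1 pair was not called. CDKB2;2 (AT1G20930) was at 43.0 and 41.3 (Ler), 44.1 and 42.8 (ag-10), 34.9 and 32.9 (fhy3-68) and 28.8 and 33.5 (ag-10 fhy3-68). The libraries with fhy3-68 did not overlap the others, and the log2 difference was -0.39 (SE 0.071, adjusted p = 0.0131). CDKB2;1 differed by -0.47 (adjusted p = 0.0235). CDKB1;1 differed by -0.37 (adjusted p = 0.075), with fhy3-68 replicate 1 at 27.5, inside the range of 25.8 to 28.3 seen without the mutation. CDKB1;2 differed by -0.21 (adjusted p = 0.263). All 4 of these kinase genes overlap a neighbouring gene model in the TAIR10.1 annotation, as do the 3 Aurora genes below.

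The A1 and A2 cyclins, which act from S phase to mitosis, were mixed. CYCA1;1 (AT1G44110) was at 50.4 and 48.7 (Ler), 55.4 and 49.7 (ag-10), 40.5 and 28.0 (fhy3-68) and 33.0 and 36.5 (ag-10 fhy3-68). Its lowest library was fhy3-68 replicate 2, no library with fhy3-68 reached the others, and the log2 difference was -0.57 (SE 0.12, adjusted p = 0.0195). The 4 A2 cyclins were not called, with differences of 0.04 for CYCA2;1, -0.55 for CYCA2;2 (adjusted p = 0.0547), 0.06 for CYCA2;3 and -0.28 for CYCA2;4.

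Genes of the spindle, the cell plate and the exit from mitosis gave the member with the lowest p of all 50. AUR1 (AT4G32830), an Aurora kinase that acts on the mitotic spindle and the cell plate, was at 41.9 and 39.3 (Ler), 38.8 and 37.1 (ag-10), 28.9 and 27.5 (fhy3-68) and 22.6 and 24.0 (ag-10 fhy3-68). The double mutant was lowest, fhy3-68 came next, and neither overlapped ag-10 or Ler. The average log2 difference was -0.60 (SE 0.064, adjusted p = 0.00386), and AUR1 passed the test in 3 pairs. Its log2 difference was -0.52 for fhy3-68 against Ler (adjusted p = 0.0365). For the double mutant it was -0.79 against Ler (adjusted p = 0.0164) and -0.69 against ag-10 (adjusted p = 0.0298). Between the double mutant and fhy3-68 the difference was -0.27, which did not pass the test.

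AUR2 (AT2G25880), the closest relative of AUR1, was at 33.6 and 28.8 (Ler), 29.5 and 28.6 (ag-10), 22.8 and 21.8 (fhy3-68) and 19.9 and 22.5 (ag-10 fhy3-68), with no overlap and a log2 difference of -0.46 (SE 0.08, adjusted p = 0.0123). AUR3, an Aurora kinase of centromeres, was not called (-0.20, adjusted p = 0.169): it stood at 13.9 and 12.4 in fhy3-68, within the 12.3 to 14.04 of Ler and ag-10, and at 9.11 and 10.8 in the double mutant. The difference between its response to fhy3-68 in ag-10 and in Ler was -0.52, with an unadjusted p of 0.0269 and an adjusted p of 1.

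Each of the 3 cytokinesis genes was called. PLE (AT5G51600), a microtubule-bundling protein of the phragmoplast, was at 73.9 and 71.2 (Ler), 67.4 and 66.6 (ag-10), 58.7 and 43.6 (fhy3-68) and 41.0 and 49.0 (ag-10 fhy3-68). The fhy3-68 replicates were further apart than the pairs in Ler and ag-10, yet both were below them, and the difference was -0.55 (SE 0.10, adjusted p = 0.0157). HIK, a kinesin of cell plate expansion, and KN, the syntaxin of cell plate fusion, differed by -0.42 (adjusted p = 0.0311) and -0.40 (adjusted p = 0.0375). For KN, fhy3-68 replicate 1, at 111, was above Ler replicate 2, at 109.

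CDC20.1 (AT4G33270) and CDC20.2 (AT4G33260), neighbouring genes for activators of the anaphase-promoting complex, were both lowered. The level of CDC20.1 was 95.1 and 80.9 (Ler), 89.9 and 81.3 (ag-10), 64.7 and 67.9 (fhy3-68) and 65.0 and 61.5 (ag-10 fhy3-68), and its difference was -0.42 (SE 0.073, adjusted p = 0.0124). That of CDC20.2 was 59.0 and 50.5 (Ler), 58.3 and 56.1 (ag-10), 40.2 and 43.4 (fhy3-68) and 38.7 and 39.5 (ag-10 fhy3-68), with a difference of -0.46 (SE 0.071, adjusted p = 0.0087). The 4 libraries with fhy3-68 ran from 61.5 to 67.9 for the first gene and from 38.7 to 43.4 for the second, below all others. They are close copies, so reads may have been split between them.

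**Figure D2:**
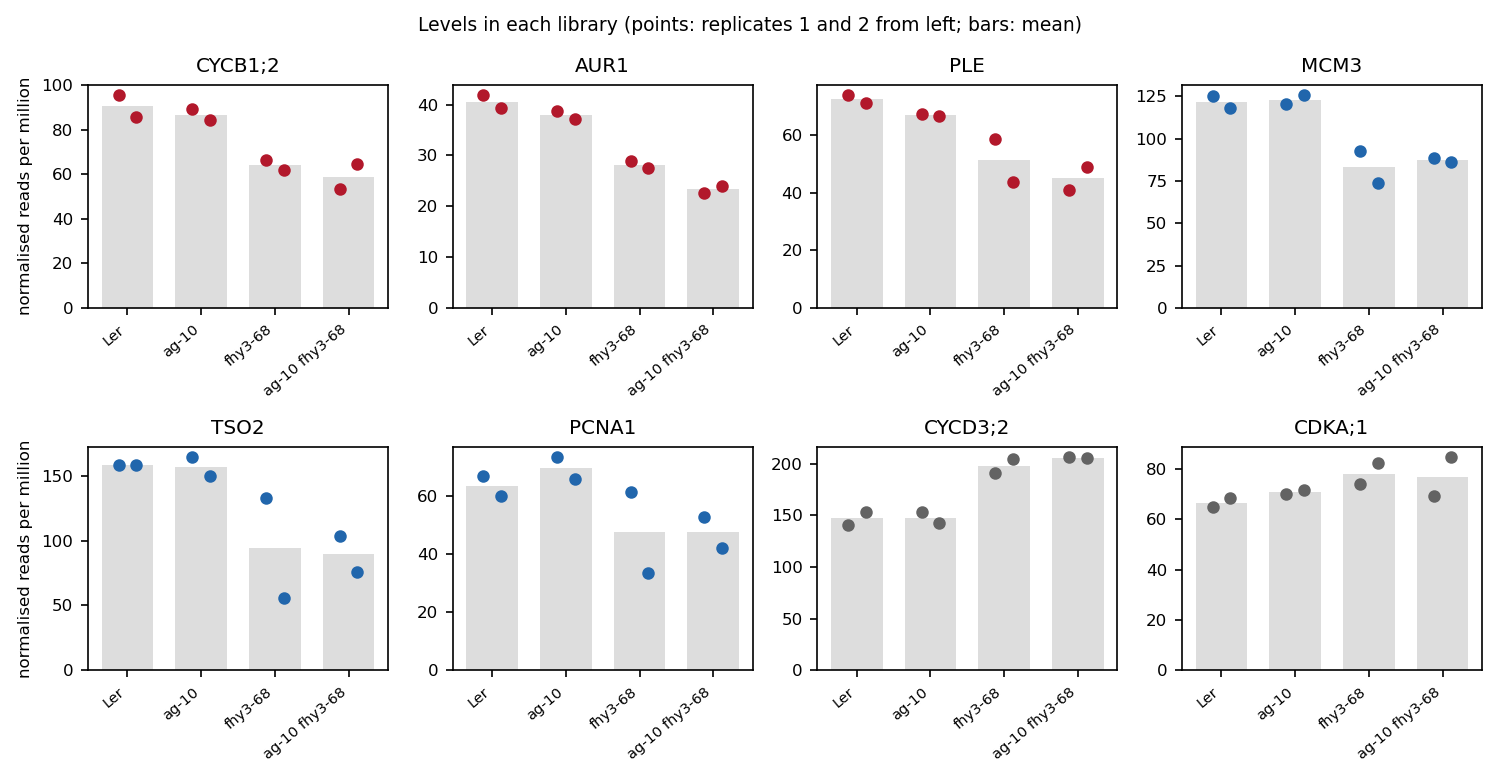
Level (normalised reads) of 8 cell cycle genes in each genotype, with replicates 1 and 2 as points from left to right and the mean as a bar. Levels of CYCB1;2, AUR1, PLE and MCM3 with fhy3-68 are all below those without it, TSO2 and PCNA1 differ most between the fhy3-68 replicates, CYCD3;2 is higher with fhy3-68, and CDKA;1 overlaps.

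Of the S-phase class, all 6 genes of the MCM2 to MCM7 helicase, which unwinds DNA at replication forks, were called lower. MCM3 (AT5G46280) was at 125 and 118 (Ler), 120.3 and 126 (ag-10), 92.6 and 73.8 (fhy3-68) and 88.3 and 86.1 (ag-10 fhy3-68). The highest library with fhy3-68 was at 92.6, the lowest without it at 118, and the log2 difference was -0.52 (SE 0.08, adjusted p = 0.0087). MCM2 (AT1G44900) was at 150.4 and 154 (Ler), 137 and 144 (ag-10), 118 and 85.3 (fhy3-68) and 107 and 104 (ag-10 fhy3-68), with a difference of -0.50 (SE 0.099, adjusted p = 0.0166). Its fhy3-68 replicate 2 was the lowest of all libraries.

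That library was also the lowest for MCM4, MCM5, MCM6 and MCM7. MCM4 (AT2G16440) was at 106 and 106 (Ler), 101 and 102 (ag-10), 83.2 and 72.5 (fhy3-68) and 84.1 and 75.6 (ag-10 fhy3-68) and differed by -0.39 (SE 0.067, adjusted p = 0.0116). MCM5 (AT2G07690) was at 117 and 115 (Ler), 112 and 109.9 (ag-10), 90.7 and 71.9 (fhy3-68) and 76.4 and 85.6 (ag-10 fhy3-68) and differed by -0.49 (SE 0.084, adjusted p = 0.012). MCM6 (AT5G44635) was at 92.0 and 96.2 (Ler), 86.5 and 91.6 (ag-10), 74.0 and 56.9 (fhy3-68) and 64.9 and 64.0 (ag-10 fhy3-68) and differed by -0.50 (SE 0.087, adjusted p = 0.0124). None of the 6 MCM genes overlapped between libraries with and without fhy3-68, and the log2 differences lay between -0.52 for MCM3 and -0.36 for MCM7 (adjusted p = 0.02).

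PCNA is the sliding clamp of the replication fork. PCNA2 (AT2G29570) was at 63.1 and 69.0 (Ler), 67.0 and 62.8 (ag-10), 53.3 and 38.1 (fhy3-68) and 46.1 and 47.0 (ag-10 fhy3-68), without overlap, and differed by -0.51 (SE 0.11, adjusted p = 0.02). PCNA1 had almost the same difference, -0.51, but was not called (SE 0.18, adjusted p = 0.0883): its fhy3-68 replicates were at 61.5 and 33.5, and the first of them was above Ler replicate 2, at 60.1.

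Ribonucleotide reductase makes the deoxynucleotides for replication. TSO2 (AT3G27060), a small subunit of the enzyme, was at 159 and 159 (Ler), 164 and 149.97 (ag-10), 133 and 55.7 (fhy3-68) and 104 and 76.1 (ag-10 fhy3-68). It had the largest difference of all 50 genes, with 58.2% of the mean level, and its libraries did not overlap, but the replicates of fhy3-68 differed more than 2-fold and the gene was not called (log2 difference -0.85 (SE 0.25, adjusted p = 0.0541)). RNR1, the large subunit, differed by -0.29 (adjusted p = 0.0598). PCNA1, TSO2 and RNR1 were called with DESeq2 on the recovered reads (adjusted p = 0.0411, 0.00241 and 0.0417). Of the S-phase A3 cyclins, CYCA3;1 was called lower (-0.40, adjusted p = 0.0486, 0.0582 with DESeq2), and CYCA3;2 (-0.13) and CYCA3;4 (-0.14) were not.

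The G1 control class did not move one way. CYCD3;2 (AT5G67260), a D-type cyclin of proliferating organs, was at 141 and 153 (Ler), 153 and 143 (ag-10), 191 and 205 (fhy3-68) and 206 and 205 (ag-10 fhy3-68). All 4 libraries with fhy3-68 were above all others, at 137% of their mean, and the log2 difference was 0.45 (SE 0.06, adjusted p = 0.00632). It passed the test in the same 3 pairs as AUR1, with 0.43 for fhy3-68 against Ler (adjusted p = 0.0483) and, for the double mutant, 0.48 against Ler (adjusted p = 0.0352) and 0.48 against ag-10 (adjusted p = 0.0499). The related CYCD3;1 and CYCD3;3 had differences of -0.18 (adjusted p = 0.0684) and 0.02 (adjusted p = 0.91).

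CYCD1;1 was called lower (-0.25, adjusted p = 0.0489), and CYCD2;1 (0.12) and CYCD4;1 (-0.12) were not called. CDKA;1 (AT3G48750), the main kinase of the plant cycle, was at 64.8 and 68.3 (Ler), 70.0 and 71.7 (ag-10), 74.0 and 82.2 (fhy3-68) and 69.0 and 84.6 (ag-10 fhy3-68). Double mutant replicate 1 lay below both ag-10 libraries, so the groups overlapped, and the difference was 0.17 (SE 0.08, adjusted p = 0.176). DEL1, an atypical E2F that represses the switch to endoreduplication, was lower (-0.49, adjusted p = 0.0223), as was RBR1, the retinoblastoma protein that holds E2F factors inactive (-0.25, adjusted p = 0.0496). The activator E2Fa differed by -0.26 (adjusted p = 0.164) and E2Fb by 0.04 (adjusted p = 0.71). The calls of RBR1 and CYCD1;1 lay next to the threshold and were lost with edgeR (adjusted p = 0.0564 and 0.0563) and with DESeq2 (0.0583 and 0.0572).

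**Figure D3:**
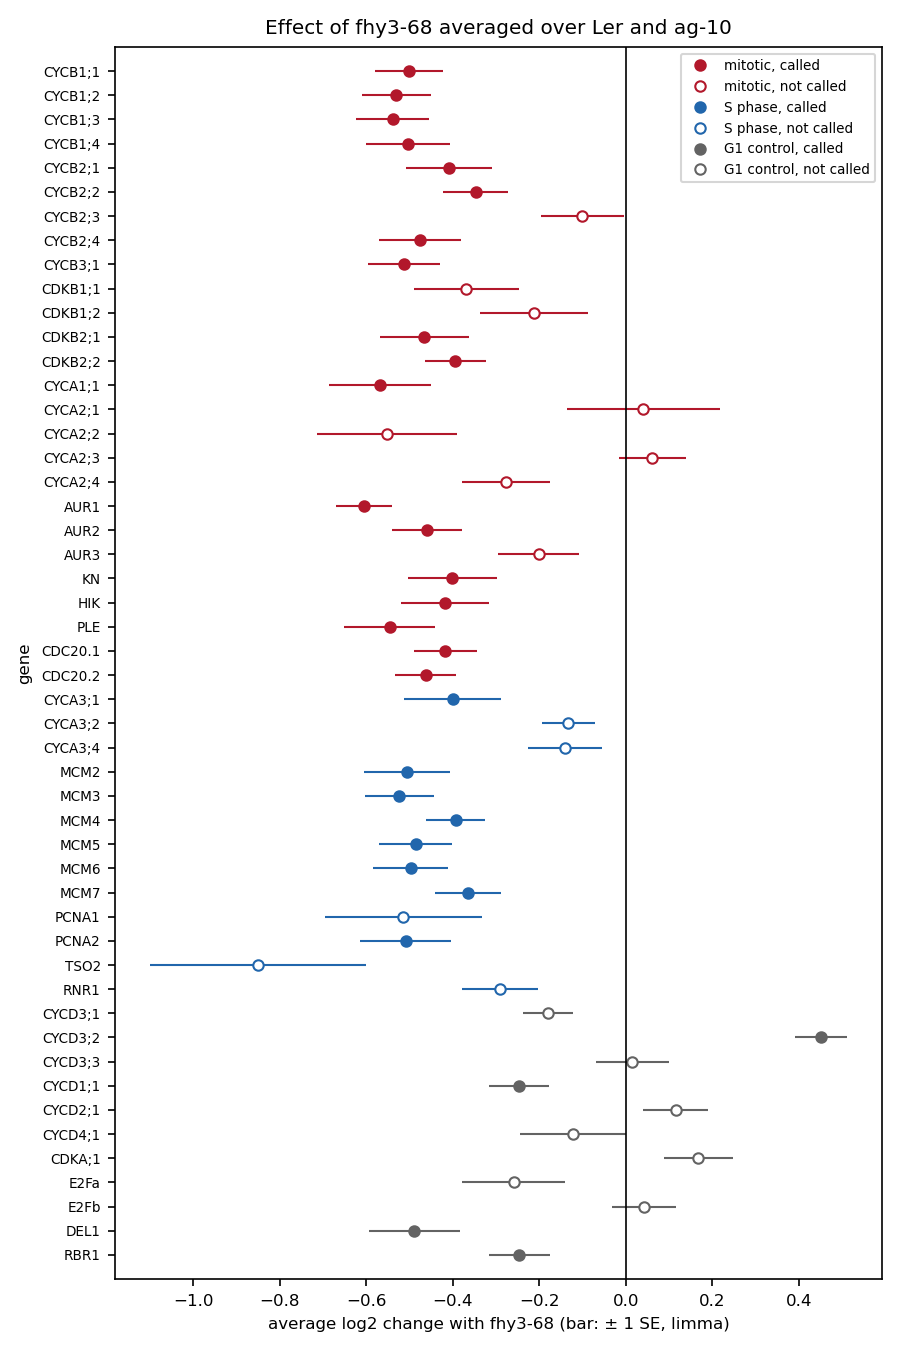
Log2 difference of the libraries with fhy3-68 from those without it, averaged over the Ler and ag-10 backgrounds, for each of the 50 genes, with bars of 1 standard error from limma. Filled points passed an adjusted p of 0.05. Mitotic and S-phase genes lie between -0.85 (TSO2) and 0.06, and CYCD3;2 is the highest point at 0.45.

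The medians of the mitotic and the S-phase class were much alike. In fhy3-68 against Ler the median log2 difference was -0.41 over the mitotic class and -0.52 over the S-phase class. For the double mutant against ag-10 the medians were -0.47 and -0.41. The S-phase class was thus slightly lower in the first case and the mitotic class in the second. The gap between the class medians, mitotic minus S-phase, was 0.107 in fhy3-68 against Ler and 0.047 in the average effect. Both are smaller than 0.148, the SD of that gap between replicates. For ag-10 against Ler the medians were -0.04 and -0.06, and the gap was 0.016.

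By library, the median deviation of the mitotic genes from their means was 0.32 and 0.16 (Ler), 0.22 and 0.18 (ag-10), -0.12 and -0.21 (fhy3-68) and -0.36 and -0.18 (ag-10 fhy3-68). For the S-phase genes it was 0.22 and 0.26 (Ler), 0.17 and 0.20 (ag-10), -0.06 and -0.43 (fhy3-68) and -0.18 and -0.22 (ag-10 fhy3-68). Both classes separated the 4 libraries with fhy3-68 from the other 4, and the lowest library was double mutant replicate 1 for mitotic genes and fhy3-68 replicate 2 for S-phase genes. The S-phase value of fhy3-68 thus rested unevenly on its 2 libraries. Without replicate 2 the S-phase median of fhy3-68 against Ler was -0.31 and the mitotic median -0.31, and without replicate 1 the S-phase median was -0.72.

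**Figure D4:**
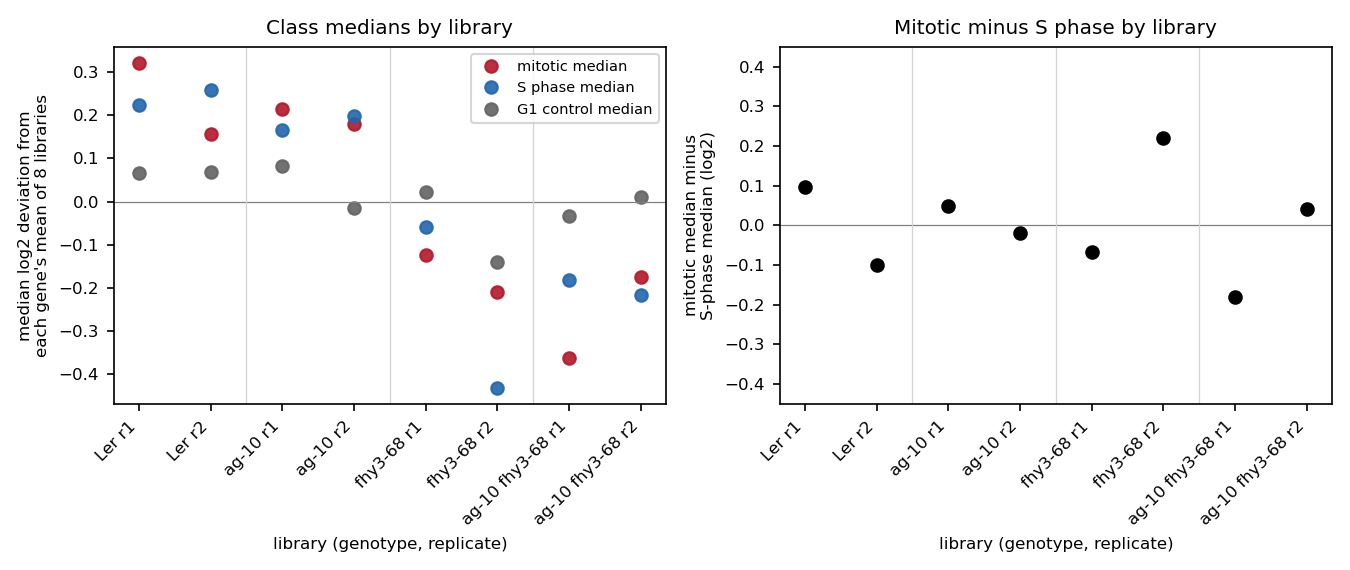
Left, median over the genes of each class of log2(level + 0.5) minus the gene's mean over the 8 libraries, by library. Right, the mitotic median minus the S-phase median in each library, which lies between -0.18 and 0.22 and takes both signs in each genotype.

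The effect of fhy3-68 had the same sign for most members in Ler and in ag-10, comparisons that share no library. Of the 50 genes, 41 (82%) had a negative log2 difference in both backgrounds, 5 a positive one in both and 4 opposite signs, whereas 41.1% of all genes were negative in both. Negative in both were 23 of the 26 mitotic genes, 12 of the 13 S-phase genes and 6 of the 11 G1 control genes. The interaction, which tests whether the effect differed between the backgrounds, was called for 0 members by limma, edgeR or DESeq2, against 0.00504% of all genes with limma. At an unadjusted p under 0.05 it held 2 members, AUR3 (-0.52) and CYCA3;2 (0.31).

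Adding ag-10 to fhy3-68 gave no call. In the double mutant against fhy3-68, 0 members and 0% of all genes were called by limma, and AUR1 (-0.27) and AUR3 (-0.39), both mitotic, had an unadjusted p under 0.05 (0.0189 and 0.0204). For edgeR and DESeq2 the number of members called was also 0. Of the 26 mitotic genes 20 were below 0, at a median of -0.09, and of the 13 S-phase genes 2 were, at a median of 0.05. Over all genes 50.6% were below 0, at a median of -0.002. Genes of a class share the same libraries, so these counts are a description. Between the fhy3-68 replicates themselves the S-phase genes differed by a median of 0.37, replicate 1 minus replicate 2, and between the double mutant replicates the mitotic genes differed by a median of -0.18, replicate 1 minus replicate 2.

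**Figure D5:**
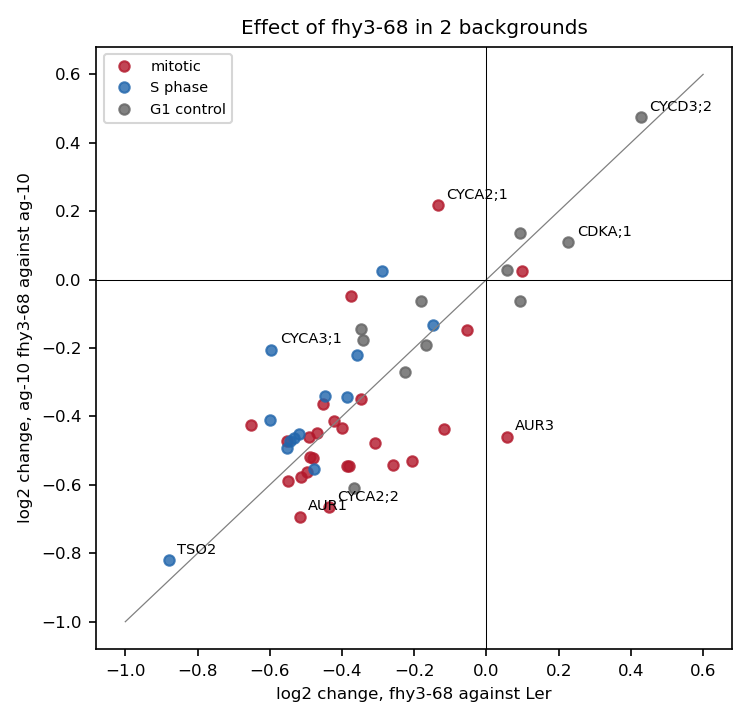
Log2 difference with fhy3-68 in the Ler background (horizontal) and in the ag-10 background (vertical) for the 50 genes, with the line of equal effects. The 41 genes at lower left are below 0 in both backgrounds. AUR3 and CYCA2;1 lie off the line, and CYCD3;2 and TSO2 mark the ends.

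Many of the calls were not kept when a single library was left out, in fits that also have fewer residual degrees of freedom. Where the libraries with fhy3-68 do not overlap the others, leaving a library out cannot change the sign of the difference. When each library was left out in turn, all 30 members called in the average effect kept their sign in all 8 fits, and 7 were called in all 8: AUR1, CDC20.2, MCM3, CYCD3;2 and the first 3 B1 cyclins. The number of members called fell to 7 without Ler replicate 1 (4.68% of all genes), to 10 without Ler replicate 2 (4.68%), to 15 without ag-10 replicate 1 (7.01%) and to 18 without ag-10 replicate 2 (10.96%). It was 16 without double mutant replicate 1 (9.16%) and 22 without double mutant replicate 2 (9.34%). Without fhy3-68 replicate 1 it was 35 (32.1%) and without fhy3-68 replicate 2 it was 27 (16.2%), so the share over all genes moved with the members' count.

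Other cell cycle genes, taken from lists of known function, were counted beside the members, and values are given for the 8 with the lowest p and for a few picked after their values were seen. Of 17 further mitotic genes, 16 were called lower in the average effect, against 7.34% of all genes, with a median of -0.43. In all 17 the libraries with fhy3-68 lay below the others, against 12.9% of all genes. The kinesins ATK5 and ATK1, which focus spindle poles, differed by -0.53 (SE 0.057, adjusted p = 0.00395) and -0.55 (SE 0.085, adjusted p = 0.0087). ATK5 was at 64.1 and 61.1 (Ler), 59.5 and 57.8 (ag-10), 43.6 and 41.6 (fhy3-68) and 39.96 and 41.7 (ag-10 fhy3-68). MAP65-4, a microtubule bundler of the spindle, differed by -0.49 (SE 0.073, adjusted p = 0.00846), and CCS52B, an activator of the anaphase-promoting complex, by -0.41 (SE 0.072, adjusted p = 0.0124). The condensin genes SMC2 and SMC4, for chromosome condensation, differed by -0.43 (SE 0.069, adjusted p = 0.00962) and -0.43 (SE 0.072, adjusted p = 0.0108), and AT1G63100 by -0.47 (SE 0.081, adjusted p = 0.0116). ESP, the separase, was the one not called (-0.22, adjusted p = 0.0775).

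Of 23 further replication genes, 10 were called lower, against 7.34% of all genes, with a median of -0.37. CDT1B, which licenses origins, was at 25.6 and 30.2 (Ler), 27.9 and 30.7 (ag-10), 20.4 and 19.4 (fhy3-68) and 18.9 and 20.14 (ag-10 fhy3-68), with a difference of -0.52 (SE 0.082, adjusted p = 0.00949). Of the 7 listed genes of the origin recognition complex, ORC4 was called lower (-0.33, adjusted p = 0.0257), and the others, with differences between -0.41 (ORC6) and 0.03 (ORC5), were not called. Of 13 genes for replication-linked histones H3.1 and H4, 6 were called lower, against the same 7.34%, with a median of -0.41. These are near-identical copies whose reads may be shared. Of 19 inhibitors and repressors of the cycle, 4 were called lower (KRP2, KRP3, E2Fc and DEL3) and 1 higher, with a median of -0.09. Over all genes 7.34% were called lower and 10.6% higher. The higher one was KRP4, an inhibitor of cyclin-dependent kinases, at 34.1 and 33.0 (Ler), 37.5 and 36.5 (ag-10), 41.0 and 62.5 (fhy3-68) and 48.5 and 60.5 (ag-10 fhy3-68), a difference of 0.56 (SE 0.14, adjusted p = 0.0308).

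Marker genes of other cells and conditions moved in the same libraries. In the average effect 7.34% of all genes were called lower and 10.6% higher by limma. Of 12 anther markers, 6 were called lower in the average effect, with a median of -0.47, and their summed level was 1811 to 2225 without fhy3-68 and 1136 to 1617 with it. Their median deviation by library was lowest in double mutant replicate 1, at -0.53. Of 6 meiosis markers (median -0.32), 0 were called by limma, edgeR or DESeq2 and 3 had an unadjusted p under 0.05, with a summed level of 69.6 to 78.3 without fhy3-68 and 54.0 to 66.9 with it. Of 8 meristem markers, 2 were called lower by limma (WUS and CUC2), 2 by edgeR and 0 by DESeq2, with a median of -0.09. Their summed level was 344 to 365 without fhy3-68 and 316 to 339.7 with it. Of 5 flower markers, SEP3 was called higher and AP3 lower by limma, and edgeR called 0 of them lower. Of 4 pollen markers, 0 were called by limma or edgeR, 2 were called higher by DESeq2 and 2 had an unadjusted p under 0.05, and their summed level ran from 4.44 to 32.8 without fhy3-68 and from 21.2 to 108 with it. DAF1 was at 0 in 3 libraries. Their part in the cell cycle results was not tested.

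Of 9 genes induced by darkness and sugar starvation, 6 were called higher, against 10.6% of all genes, with a median of 3.099. Their summed level was 351 to 390.45 without fhy3-68, against 727 and 2712 (fhy3-68) and 1032 and 2137 (ag-10 fhy3-68). In fhy3-68 replicates 1 and 2 the S-phase medians were -0.06 and -0.43 and the mitotic medians -0.12 and -0.21. In double mutant replicates 1 and 2 the S-phase medians were -0.18 and -0.22 and the mitotic medians -0.36 and -0.18. Of 10 rapid stress genes, 8 were called higher, against the same 10.6%, with a median of 2.27. Their summed level was 114 to 375 without fhy3-68 and 603 to 1345 with it. Of 8 photosynthesis genes, 3 were called higher, again against 10.6%, with a median of 0.22. Their summed level was 14490 to 16568 without fhy3-68 against 18115.5 to 20225 with it. The part of starvation, stress or green tissue in the lower cell cycle levels was not tested.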

How the data were processed

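The deposited unit is a normalised signal, gene read counts divided by a library size factor, as worked out from the deposited values. After division by the value of 1 read (0.0598 to 0.0793), 100% of values were whole to within 0.1 read. The tools named, without roles, are HTSeq 0.6.1p1, TopHat2 2.0.14, CASAVA 1.8 and edgeR 3.10.0, per the submitters' processing notes. The build is not given in the sources used here, and 19 identifiers carry a Ler_0 tag. RefSeq TAIR10.1 therefore served for names and gene neighbours only (19811 of 19853 identifiers matched, 99.8%), and no sequence was used here. The members, classes and lists were chosen with earlier results of these data known.

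The edgeR test written for counts was replaced, since the values are normalised, by limma 3.58.1 in R 4.3.3. It was run on log2(value + 0.5) with an intensity trend. The fit had a coefficient per genotype over all 8 libraries and 4 residual degrees of freedom. Genes were called at a two-sided Benjamini-Hochberg adjusted p under 0.05 over all genes. The pseudocount understates changes of low genes. The average fhy3-68 effect is the mean of its effects in Ler and in ag-10. Medians over classes are descriptions without a test. Alternatives were other pseudocounts (0.1 and 2), a mean value of at least 5, library totals, DESeq2 1.42.0 and edgeR 4.0.16 on the recovered reads, only the libraries compared, a replicate block, other class definitions and leaving out each library. The fit was checked on simulated reads in which every gene and genotype had the same spread setting. That check does not cover the unequal spread of the real replicates.

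Values in every library are given for the 20 called members with the lowest p in the average effect and, in roles with no call, for the member with the largest change. Of 143 entries in the other lists, 135 were in the table and 1 was dropped because the reference gives it another name.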

Additional observations from a re-analysis of the deposited data

How the results depend on the processing

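In the average fhy3-68 effect 28 to 35 members were called under every alternative that kept all libraries, and 7 to 35 when a library was left out. Over all genes the share called under these alternatives ran from 17.1% (DESeq2) to 24.8% (replicate block) with all libraries kept. With a library left out it moved with the members' count, as given above. These counts are therefore no measure of the members alone. The mitotic and S-phase medians in the average fhy3-68 effect stayed below 0 under all alternatives. In fhy3-68 against Ler, 4 members (3.05% of all genes) were called in the main analysis, 10 (3.39%) with library totals, 10 (7.51%) with DESeq2, 2 (2.57%) with edgeR, 14 (9.31%) with the replicate block, 0 (1.74%) with only the libraries compared, and 0 to 24 when a library was left out. In ag-10 fhy3-68 against Ler the main number was 9 (4.33%), with 15 (4.49%) for library totals and 16 (8%) for DESeq2. It was 16 (9.87%) for the replicate block and 28 (14.7%) for only the libraries compared. In ag-10 fhy3-68 against ag-10 it was 2 (1.5%), with 1 for a pseudocount of 0.1 (1.29%), a pseudocount of 2 (1.16%), the filter at a mean value of 5 (1.28%) and edgeR (1.04%), 8 (5.38%) for DESeq2, 6 (4.67%) for the replicate block, 5 (2.54%) for only the libraries compared and 0 to 25 when a library was left out. Fits on fewer libraries have fewer residual degrees of freedom. With a library left out the shares of all genes called between pairs, given above, changed as well. The cause of the changes in these numbers was not tested.

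With a library left out, the mitotic median ranged from -0.51 to -0.31 in fhy3-68 against Ler, and the S-phase median from -0.72 to -0.31 there and from -0.57 to -0.34 in the average effect. The gap between them in fhy3-68 against Ler ranged from -0.026 to 0.246 and so took both signs. The difference of CDKA;1 in ag-10 fhy3-68 against ag-10, which was not called, ranged from -0.036 without ag-10 fhy3-68 replicate 2 to 0.25 without replicate 1.

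The labels do not say that replicate numbers pair the libraries. The deviations of same-numbered libraries correlated between -0.11 (Ler with ag-10 fhy3-68) and 0.45 (fhy3-68 with ag-10 fhy3-68). With the replicate block 34 members (24.8% of all genes) were called in the average effect. A crossed pairing of Ler with ag-10 fhy3-68, added after seeing the data, called 12 members in that comparison. The share of all genes called with the crossed pairing is not given, so this count is no result about the members. With the replicate block as numbered, 9.87% of all genes were called there.

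Limits: 2 libraries per genotype, 4 residual degrees of freedom, and lists whose genes share libraries. Counting error limits the members of low level, such as CYCA2;1 with 13 reads in a library.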
